A study of Mus musculus with 6 samples.

Results

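Circular RNAs (circRNAs) of 40 genes of TGF-beta, BMP and activin signalling were examined in whole mouse ovaries. These genes encode ligands, latency proteins, receptors, SMAD proteins and their regulators. They were chosen by name, with earlier results of these data known. A row of the deposited circRNA table belonged to them when its host gene was on that list, which held for 158 circRNAs from 29 of the 40 genes, out of 27999 circRNAs from 7411 host genes in all. The ovaries came from C57BL/6 mice, an inbred laboratory strain, at the ages of 6 weeks (adult, 3 libraries) and postnatal day 5 (neonatal, 3 libraries). All libraries were made from total RNA digested with RNase R, an exonuclease that removes linear RNA and spares circles, and the labels do not say whether a library came from a single animal or from pooled ovaries. The p-values therefore rest on the spread among 3 libraries a group, and that spread may be technical.

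The authors compared a group named A with a group named B, and these letters match no sample label. The sources used here do not tie either letter to an age, so no value given is a statement about age. For the same reason no value per library is given, and the depth of each library is unknown. What is given for each circRNA is the authors' log2 fold change of A over B and their p-value. The ovary is a mixture of cell types, and in such bulk RNA fewer cells of a type and less RNA per cell cannot be told apart. Of 17 ovarian marker genes, such as the steroid enzyme gene Cyp11a1 and the oocyte coat genes Zp2 and Zp3, 13 were listed as hosts of a circRNA, and Fshr, Foxl2, Figla and Gdf9 were not. Of the 42 circles of these marker genes, 16 had values in 2 or more libraries, and 4 of those were higher in A, against 70.1% of such circRNAs over the catalogue. The authors' deposited table marked 1 of the 42, a circle of Nr5a2 that was higher in B. Over the catalogue 1.75% of circRNAs were marked, and 0.521% were marked as higher in B. These marker counts were not tested.

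Ligands of this family are secreted and bind pairs of receptor kinases at the cell surface. The type II receptor phosphorylates the type I receptor, which phosphorylates receptor SMADs, and these enter the nucleus with the shared partner SMAD4. TGF-beta itself is secreted in a latent form held in the matrix by latent TGF-beta binding proteins (LTBPs). In the ovary, family members made by oocytes, granulosa cells and stroma are known for their part in follicle growth. A circRNA forms when the splice donor at the end of an exon joins an acceptor upstream, and it is recognised by reads across that back-splice junction.

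The junctions show the ends of each circle: the end of its last exon followed by the start of its first exon. What lies between was not observed. The exons, lengths, codons and reading frames given here assume that a circle keeps every exon of the named isoform between its ends, and no intron. Shown here are the junctions of the circRNA of these hosts that the authors marked as different and, for a type I receptor, a pair of type II receptors and a SMAD, of a circRNA with the host's smallest p, where both sides were coding sequence. The Tgfbr1 and Acvr2a circles had a value in a single library. Each line gives the last 20 bases before the junction in lower case and the first 20 bases after it in capitals, 5′ to 3′ on the host's strand, from the GENCODE M21 transcript sequences (GRCm38).
Ltbp2 circRNA345: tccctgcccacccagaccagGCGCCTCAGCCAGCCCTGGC
Tgfbr1 circRNA17811: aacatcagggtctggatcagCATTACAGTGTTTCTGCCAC
Bmpr2 circRNA11546: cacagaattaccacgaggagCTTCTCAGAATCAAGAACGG
Acvr2a circRNA18710: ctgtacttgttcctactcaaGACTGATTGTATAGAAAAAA
Smad3 circRNA12278: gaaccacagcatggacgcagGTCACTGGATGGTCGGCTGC
On GRCm38 these lie at chr12:84828448-84831923 (Ltbp2, minus strand), chr4:47383749-47393489 (Tgfbr1, plus), chr1:59813588-59847172 (Bmpr2, plus), chr2:48873057-48873473 (Acvr2a, plus) and chr9:63666148-63667922 (Smad3, minus).

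Circles were spread unevenly over the pathway. The 11 genes with no listed circle were the ligands Bmp2 and Bmp4, the BMP antagonist Nog, the receptors Acvr1c and Acvr2b, the inhibitory SMAD genes Smad6 and Smad7, Smad9, Zfyve16, the corepressor Ski and the ubiquitin ligase Smurf1. None of these 11 had a circle under an older symbol or within its annotated bounds under another name. The listed share of the 40 genes was 72.5%, and that of the 21991 protein-coding gene names of GENCODE M21 was 32.1%. The gap was not tested: the 40 genes were chosen with earlier results known, and the coding genes were not limited to those expressed in ovary. The hosts had a median of 4 circles each (quartiles 2 and 6), against 2 (quartiles 1 and 5) over all 7411 hosts.

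Ltbp1 had 35 circles, and only 9 hosts of the catalogue had more. Zfyve9 had 18, Acvr1 had 13 and Smurf2 had 11, so these 4 hosts together gave 77 of the 158 circles (48.7%). Over the whole catalogue, hosts with 10 or more circles gave 32.5%. A single circle was listed for Tgfb2, Tgfb3, Smad5, Acvrl1 and Tgif1. Exonic circles made up 153 of the 158, and the other 5 lay within an intron (of Acvr1, Acvrl1, Ltbp2, Ltbp4 and Tgif1), each with a value in a single library.

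**Figure D1:**
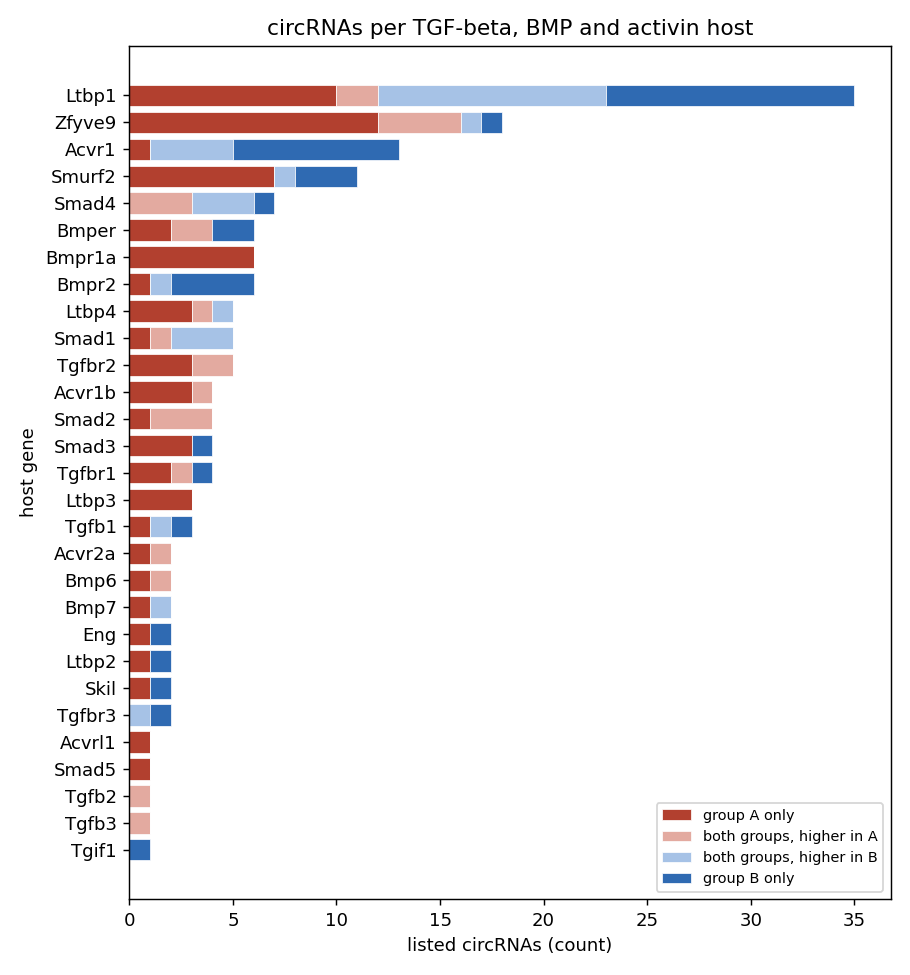
Number of listed circRNAs for each of the 29 host genes (count on the x axis), split by whether the authors' table has values in group A only, in both groups (by the higher one) or in group B only. Ltbp1 leads with 35 circles, and the 6 circles of Bmpr1a are all in group A only while 12 of the 13 of Acvr1 are higher in group B or in B only.

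The authors' table marked a single circle of this pathway as different between groups A and B. This was 1 of 158 circles, where the rule (p under 0.05 and a change of 1 or more on the log2 scale, either way) marked 1.75% of the 27999 circRNAs. The same circle alone had p under 0.05, a threshold passed by 1.95% of all circRNAs. An adjusted p under 0.05 was reached by 0 of the 158 circles and by 0.0% of the catalogue, and the smallest adjusted p among the 158 circles was 0.522 in the authors' deposited table. The other circles did not pass the authors' test, which does not show that they were equal in the groups.

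The circle is circRNA345 of Ltbp2, which encodes a microfibril-associated relative of the LTBPs that does not bind latent TGF-beta. On chromosome 12, it joins exons 4 to 8 of an isoform of 36 exons. It is 941 nt long, all coding, and holds codons 267 to 581 of 1809. The authors' deposited table lists it in group A only (p = 0.00168, adjusted p = 0.522). Had the authors used an unequal-variance test, 2 equal values in 1 group against zeros would give p = 0.184, so a smaller p for a circle of 1 group only needs values in all 3 libraries of that group. This holds for 0.932% of the catalogue and for 2 of the 158 circles, circRNA345 of Ltbp2 in group A and circRNA21193 of Smad4 in group B. Introns of 21763 and 12411 nt flank the Ltbp2 circle, against a median of 598 nt for the other introns of that isoform. The remaining Ltbp2 entry is an intronic circle, listed in group B only with a value in a single library.

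**Figure D2:**
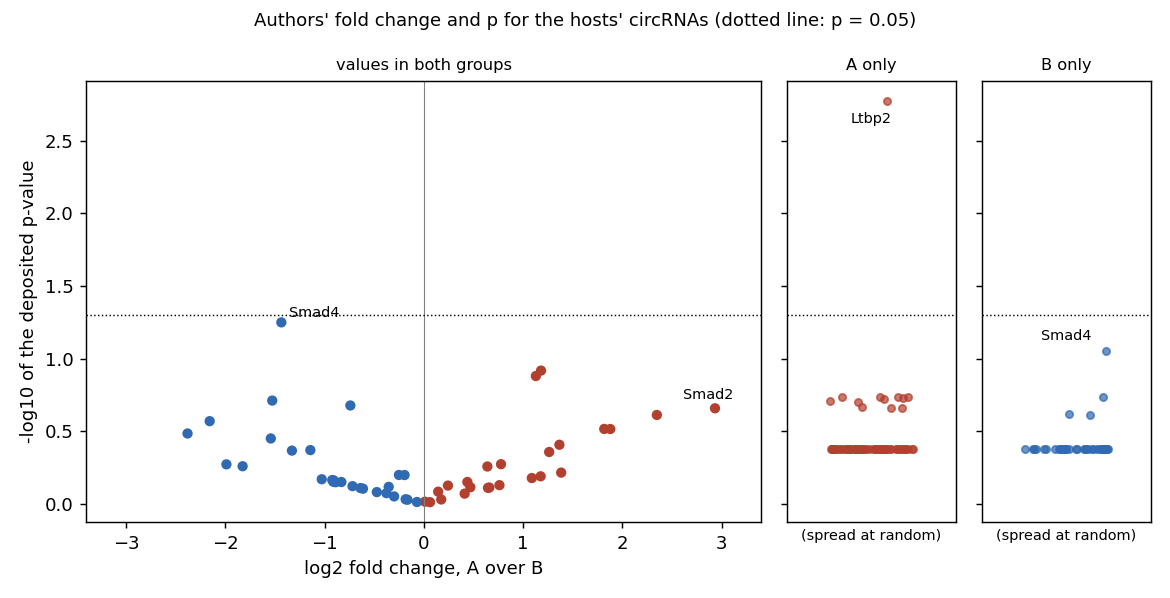
The authors' log2 fold change of group A over group B (x axis) and the negative log10 of their p-value (y axis) for the 52 circRNAs of these hosts with values in both groups, with the 67 in group A only and the 39 in group B only in separate panels (horizontal spread there is random). The Ltbp2 circle in group A only is the single point above the dotted line, and the nearest points under that line are Smad4 circles.

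A smaller share of these circles than of the catalogue was higher in group A, and the gap was narrower without Ltbp1. Values in A only were listed for 67 circles (42.4%, catalogue 46.5%), in both groups for 52 (32.9%, catalogue 29.0%) and in B only for 39 (24.7%, catalogue 24.5%). Most circles were seen sparsely: 90 of the 158 (57.0%, catalogue 62.0%) had the p of 0.423 that an unequal-variance test gives when a single library of 6 holds a value. Of the 68 circles supported by 2 or more libraries, 36 were higher in A (52.9%), against 70.1% over the catalogue. Without Ltbp1, 34 of 53 were higher in A (64.2%). With each host counted once the mean share was 70.4%, a mean over hosts for which no catalogue value was computed. The median log2 fold change of the 52 circles with values in both groups was -0.17, against 0.42 over the catalogue, and it was 0.24 without Ltbp1. No test was made of these shares, since circles of a host share splice sites and are not independent.

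These hosts had circles on either side, and were not more one-sided than hosts of the catalogue where this could be compared. Of the 24 hosts with a circle in 2 or more libraries, 13 had all such circles higher in A, 3 had all of them higher in B and 8 had circles on both sides. The 3 on the side of B were Acvr1, Tgfb1 and Tgfbr3. A host with a single circle of this kind falls on 1 side by definition. Over the catalogue, A was the higher group for 70.1% of such circRNAs. No catalogue value was computed for the split of hosts into 13, 3 and 8, so it does not set them apart. Among the 13 hosts with at least 2 such circles, 5 had them all on 1 side (38.5%), namely Acvr1 toward B and Bmper, Bmpr1a, Smad2 and Tgfbr2 toward A. The share over all such hosts of the catalogue was 52.0%.

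The ligand genes gave 9 circles from 5 of 7 genes. Tgfb1 encodes the main TGF-beta isoform, and its 3 circles all ended at the donor of exon 5. Its circle of exons 3 to 5 had, in the authors' deposited table, -1.53 as its log2 fold change of A over B (p = 0.195), the quantity given for every circle with values in both groups. The circle of exons 4 and 5 was listed in A only and that of exons 2 to 5 in B only, each in a single library. Tgfb2 and Tgfb3 encode the other TGF-beta isoforms. The Tgfb2 circle of exons 2 to 6 (740 nt) stood at 1.38 (p = 0.611) and the Tgfb3 circle of exons 2 and 3 (294 nt) at 1.37 (p = 0.393) in the authors' deposited table. None of these ligand values passed the test.

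Bmp6 and Bmp7 encode BMP ligands of the same subgroup. Both Bmp6 circles began at exon 3, and the circle of exons 3 and 4 stood at 1.88 in the authors' deposited table (p = 0.306), while that of exons 3 to 6 was in A only in a single library. Bmp7 split its sequence between 2 circles that met at the boundary of exons 3 and 4. The circle of exons 4 to 6 was in A only (p = 0.220) and that of exons 2 and 3 stood at -0.47 (p = 0.833) by the authors' deposited table. The exons shown by the ligand circles lay within the coding sequence. None held the first or the last exon, as in nearly all of the catalogue.

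The latency proteins gave 45 circles, 35 of them from Ltbp1. LTBP1 binds the latent TGF-beta complex and anchors it in the matrix, and it is built largely of EGF-like repeats. Of its 15 circles supported by 2 or more libraries, 2 stood higher in A and 13 in B. The 2 higher in A had log2 fold changes of 0.14 (exons 6 and 7, p = 0.827) and 0.06 (exons 5 to 7, p = 0.977) in the authors' deposited table. Of those with values in both groups, the 11 higher in B ran from -2.38 (exons 16 to 19, p = 0.329) to -0.38 (exons 25 to 31, p = 0.847) in the authors' deposited table. The smallest Ltbp1 p was that of the single-exon circle of exon 3 at -0.74 (p = 0.211), and 2 circles that began at exon 11 were in B only (p = 0.240 and 0.245) in the authors' deposited table. No Ltbp1 circle passed the test.

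Several splice sites were each used by more than 1 Ltbp1 circle. The 35 circles drew on 16 acceptors and 18 donors between exons 3 and 31 of 34. The donor of exon 24 closed 6 circles, the donor of exon 31 closed 5, and the acceptor of exon 11 opened 5. The next lines show the junctions of the 6 circles closed at exon 24, chosen after their values were seen because they share this donor: the lower-case part is the same in each, and the capitals are the starts of exons 11, 14, 16, 19, 20 and 22.
Ltbp1 circRNA14950: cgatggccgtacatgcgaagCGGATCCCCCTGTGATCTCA
Ltbp1 circRNA6163: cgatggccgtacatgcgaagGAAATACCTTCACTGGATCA
Ltbp1 circRNA14953: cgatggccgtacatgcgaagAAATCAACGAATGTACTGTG
Ltbp1 circRNA14954: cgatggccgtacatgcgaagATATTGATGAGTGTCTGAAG
Ltbp1 circRNA6165: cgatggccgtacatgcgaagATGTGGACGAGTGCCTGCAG
Ltbp1 circRNA24179: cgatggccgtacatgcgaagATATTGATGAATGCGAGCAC
These circles lie on the plus strand of chromosome 17 between 75273867 and 75327322, and run from 1731 nt (exons 11 to 24) down to 372 nt (exons 22 to 24). The circles from exons 11, 14 and 20 had values in both groups, at -1.99, -0.91 and -0.92 (p = 0.536, 0.691 and 0.688) by the authors' deposited table. Those from exons 16 and 19 were in A only and that from exon 22 in B only, each in a single library. The largest circle of all 158 was also an Ltbp1 circle, of 21 exons (11 to 31, 2709 nt), in B only in a single library.

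**Figure D3:**
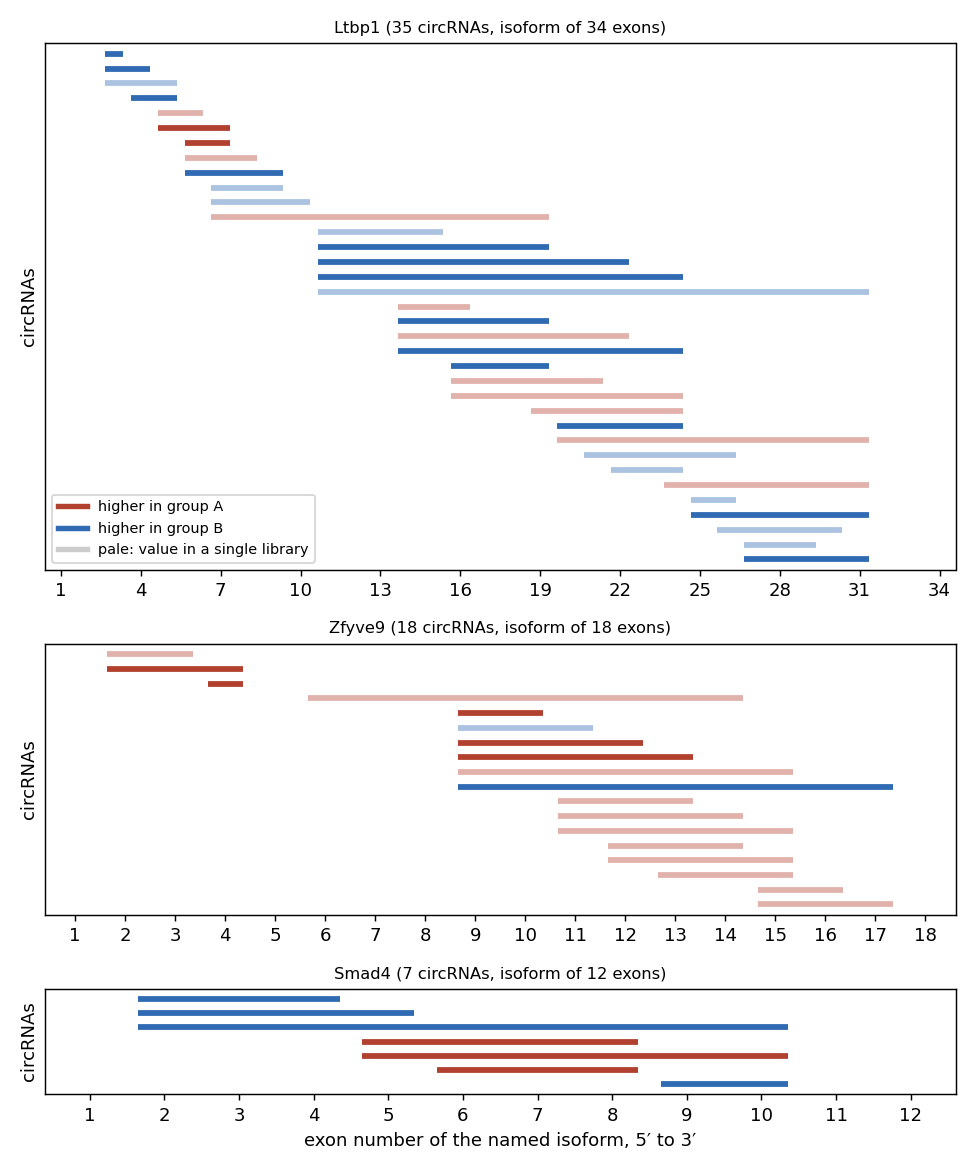
Annotated exons from the first to the last of each circRNA of Ltbp1, Zfyve9 and Smad4 (x axis, exon number of the named isoform). Each circRNA is 1 bar, red where the authors' table has it higher in group A and blue where higher in group B. Pale bars have a value in a single library. Among full-colour bars Ltbp1 is blue in 13 of 15 and Zfyve9 red in 5 of 6, and all 7 Smad4 circles have values in 2 or more libraries.

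The other LTBP genes gave few circles. Ltbp3 had 3, all in group A only, of exons 15 to 17 (p = 0.191 in the authors' deposited table), 6 to 8 and 23 and 24, the last 2 in a single library. In Ltbp4, the circle of exons 26 and 27 stood at 2.35 (p = 0.245) and that of exons 23 and 24 at -0.35 (p = 0.766) by the authors' deposited table. The other exonic Ltbp4 circles, of exons 26 to 29 and of exon 5 alone, were in A only in a single library each. LTBP3 and LTBP4 also form latent complexes with TGF-beta. Outside the cell, Bmper encodes a BMP-binding protein that modulates BMP activity. Among its 6 circles those of exon 13 alone and of exons 12 and 13 had values in both groups, at 1.09 (p = 0.666) and 0.78 (p = 0.535) in the authors' deposited table. The other 4 Bmper circles were seen in a single library each, exons 7 to 11 and 13 and 14 in A only and exons 4 to 6 and 8 to 11 in B only.

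The type I receptors, the kinases that phosphorylate SMADs, gave 28 circles from 5 of 6 genes, and Acvr1 and Bmpr1a lay on opposite sides. Acvr1 encodes a receptor for BMPs and related ligands. Of its 13 circles 12 were higher in B or in B only, including all 5 with values in 2 or more libraries. These 5 were a circle of exons 2 to 5 in B only (p = 0.185) and 4 at -2.16, -1.03, -0.89 and -0.25 (p = 0.270, 0.679, 0.712 and 0.634) in the authors' deposited table. The only Acvr1 circle higher in A, of exons 4 to 11 (1516 nt), was in A only in a single library and held codons 1 to 422 of 509. Of the 12 exonic Acvr1 circles, 6 ended at the same donor, and 7 were named on an isoform with no annotated coding sequence.

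Bmpr1a encodes a BMP receptor needed in many tissues. All 6 of its circles were in group A only, 2 of them in 2 or more libraries. These 2 shared the donor of exon 5 and held the start codon, and were the circles of exons 2 to 5 (587 nt, p = 0.184) and 3 to 5 (473 nt, p = 0.196) in the authors' deposited table. The other 4 Bmpr1a circles, of exons 2 to 8, 5 to 9, 6 and 7, and 9 and 10, were each in a single library. The side of Acvr1 and that of Bmpr1a were not compared by a test, and no circle of either passed the authors' test.

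Tgfbr1 and Acvr1b encode the type I receptors for TGF-beta and activin. In Tgfbr1, 3 of the 4 circles opened at exon 2 behind an intron of 30352 nt. The circle of exons 2 to 4 (codons 29 to 269 of 503) stood at 0.24 in the authors' deposited table (p = 0.751). Those of exons 2 and 3 and of exons 4 and 5 were in A only and that of exons 2 to 6 in B only, each in a single library. All 4 Acvr1b circles lay toward A. The circle of exons 2 to 7 (codons 31 to 421 of 505) stood at 0.66 in the authors' deposited table (p = 0.775), and the 3 others, of exons 2 to 4, 4 to 7 and 5 to 7, were in A only in a single library. Acvrl1, an endothelial type I receptor gene, had an intronic circle only.

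Type II receptors start the cascade by phosphorylating type I receptors, and their 13 circles came from Tgfbr2, Bmpr2 and Acvr2a. All 5 circles of Tgfbr2, the TGF-beta receptor gene, lay toward A. The authors' deposited table gave 1.13 for the circle of exons 2 and 3 (p = 0.132) and 1.26 for that of exons 2 to 5 (p = 0.441). A circle of exon 4 alone (800 nt, codons 152 to 418 of 567) was in A only (p = 0.187) in the authors' deposited table. The other 2 Tgfbr2 circles, on a longer isoform, were in A only in a single library. They opened at exon 2 of that isoform, an acceptor different from that of the circles with values in both groups. Their 2 donors were the same as those of the circles with values in both groups.

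Bmpr2, the BMP type II receptor gene, had circles on both sides that opened at the same acceptor of exon 2, behind an intron of 48859 nt. The longer one, of exons 2 to 7 (codons 26 to 323 of 1038), was in A only (p = 0.221), and the shorter one, of exons 2 and 3, stood at -1.54 (p = 0.356) by the authors' deposited table. The other 4 were in B only, each in a single library. In Acvr2a, an activin receptor gene, both circles closed at the donor of exon 4. The one of exons 2 to 4 had nearly the same mean in both groups in the authors' deposited table (0.01, p = 0.969), and the one of exons 3 and 4 was in A only in a single library.

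The co-receptor genes gave 4 circles. Tgfbr3 encodes betaglycan, which presents TGF-beta and binds inhibin. Both of its circles opened at exon 12, and that of exons 12 to 14 stood at -0.61 in the authors' deposited table (p = 0.789) while that of exons 12 to 15 was in B only in a single library. Eng encodes endoglin, an endothelial co-receptor, and had 1 circle in A only (exons 8 and 9) and 1 in B only (exons 3 and 4), each in a single library.

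The share of SMAD circles seen in several libraries was above that of the catalogue. Values in 2 or more libraries were listed for 15 of 21 (71.4%), against 38.0% over the catalogue, and 13 had values in both groups. Of these 15, 7 were from Smad4. In the rest it held for 4 of 5 in Smad1, 3 of 4 in Smad2, 1 of 4 in Smad3 and 0 of 1 in Smad5. The ligand genes had a similar share, 6 of 9 (66.7%). Circles of a host share splice sites, and these shares were not tested. Smad4, the shared partner of all receptor SMADs, had 7 circles, all in 2 or more libraries. The circles of Smad4 divided by their first exon. Those that opened at exon 2, behind an intron of 25390 nt, were higher in B: exons 2 to 4 at -1.44 (p = 0.0563), exons 2 to 5 at -0.72 (p = 0.758) and exons 2 to 10 at -0.18 (p = 0.933) in the authors' deposited table. Those that opened at exon 5 or 6 were higher in A: exons 5 to 10 at 1.18 (p = 0.121), exons 5 to 8 at 0.76 (p = 0.746) and exons 6 to 8 at 0.64 (p = 0.555) by the authors' deposited table. The circle of exons 9 and 10 was in B only (p = 0.0886) in the authors' deposited table. None passed the test, and the split by first exon was noticed after the values were seen and was not tested.

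Smad2 and Smad3 encode the receptor SMADs of TGF-beta and activin. All 4 Smad2 circles lay toward A. The one of exons 3 to 5 had the largest fold among the 52 circles with values in both groups, a log2 fold change of 2.93 or 7.64-fold (p = 0.220) in the authors' deposited table. The Smad2 circle of exon 2 alone stood at 1.18 (p = 0.648) and that of exons 2 to 6 at 0.44 (p = 0.709) in the authors' deposited table, and that of exons 6 to 10 was in A only in a single library. In Smad3, 3 of 4 circles opened at exon 2 behind an intron of 89549 nt, the longest flanking intron of the 153 exonic circles. The Smad3 circle of exons 2 to 4 was in A only (p = 0.185) in the authors' deposited table. The other 3, of exons 2 and 3, 6 and 7 (both in A only) and 2 to 5 (in B only), were in a single library each.

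Smad1 and Smad5 encode receptor SMADs of the BMP branch. In Smad1, 4 of 5 circles closed at the donor of exon 6. The circle of exon 2 alone, which holds the start codon, stood at -0.19 (p = 0.635), and the circles of exons 3 to 6, 4 to 6 and 2 to 6 at -0.91, 0.47 and -0.30 (p = 0.707, 0.771 and 0.892) in the authors' deposited table. A Smad1 circle of exons 5 and 6 was in A only, and the only Smad5 circle (exons 2 to 4, 940 nt, with the start codon) was in A only too, each in a single library.

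Zfyve9 encodes SARA, an endosomal anchor that presents Smad2 and Smad3 to the receptor. Of its 18 circles 16 lay toward A, and 5 of the 6 with values in 2 or more libraries did. A circle of exon 4 alone, 2024 nt and the longest of the single-exon circles, was in A only (p = 0.184) in the authors' deposited table. The acceptor of exon 9 opened 6 circles. With values in both groups these stood at 1.82 (exons 9 to 13, p = 0.306), 0.41 (exons 9 and 10, p = 0.853), 0.17 (exons 9 to 12, p = 0.936) and -0.07 (exons 9 to 17, p = 0.974) in the authors' deposited table. The circle of exons 2 to 4 stood at 0.65 (p = 0.779) in the authors' deposited table, and 11 of the other 12 were in A only in a single library.

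Among negative regulators, Smurf2 encodes a ubiquitin ligase that marks SMADs and receptors for degradation. It had 11 circles, 7 in A only, 1 in both groups and 3 in B only. The 3 in A only with values in 2 or more libraries overlapped: exons 6 to 10, 6 to 9 and 7 to 9 (p = 0.184, 0.198 and 0.217) in the authors' deposited table. The Smurf2 circle with most exons, 4 to 9, was in A only in a single library, and that of exons 3 to 5 stood at -0.16 (p = 0.940) in the authors' deposited table. Skil encodes SnoN, a corepressor of SMAD target genes, and its 2 circles, of exons 3 to 8 in A only and 3 to 6 in B only, had the same acceptor and were each in a single library. Tgif1, a further corepressor gene, had an intronic circle in B only.

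In structure the circles resembled the catalogue in number of exons, and their isoforms had longer introns, both beside the circles and elsewhere. They had a median of 3 exons (quartiles 2 and 5), the same as the catalogue. Their median exonic length was 537 nt, against 469 nt, and 494.5 nt without Ltbp1. No circle held the first or the last exon of its isoform, which was rare in the catalogue too (0.0774% and 0.0348%). Of the 153 circles, 37 (24.2%, catalogue 23.4%) opened at exon 2. Of the 149 circles from hosts with at least 2 exonic circles, 123 (82.6%, catalogue 74.1%) shared an acceptor or a donor with another circle of the same host. The start codon was held by 18 of 146 circles on coding isoforms (12.3%, catalogue 10.8%).

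Introns beside the circles were long, mainly through Ltbp1 and the circles that opened at exon 2. Averaging the introns on either side of a circle gave a median of 9739.5 nt over the 153 circles, against 5617 nt over the catalogue. Without circles that opened at exon 2 these medians were 6390.75 nt and 4509.5 nt. With Ltbp1 left out as well, the median over the remaining circles of these hosts was 4714.5 nt, close to the 4509.5 nt of the catalogue. The other introns of the same isoforms were longer too, with a median of 3347 nt (3203.5 nt without Ltbp1) against 1968 nt over the catalogue. Flanking introns were longer than the median of the other introns of the isoform in 25 of 27 hosts (92.6%, catalogue 89.5%), and the median ratio over these hosts was 4.31 (catalogue 2.84). The 2 exceptions were Tgfbr3 (3197.5 nt against 4488.5 nt) and Skil (1082 nt against 1408 nt). Ratios were highest for Ltbp2 (28.6), Smad3 (24.8), Tgfb2 (17.8) and Acvr2a (17.6). Without circles that opened at exon 2, whose upstream intron is the often long first intron, flanking introns were longer in 19 of 24 hosts (79.2%, catalogue 85.9%), with a median ratio of 2.52 (catalogue 2.29).

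**Figure D4:**
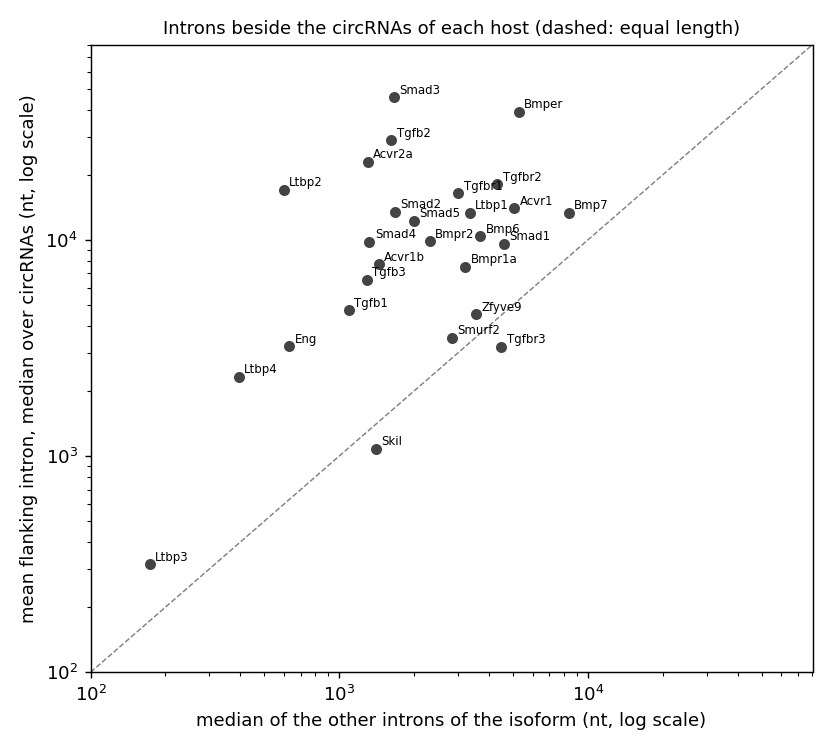
Mean length of the introns on either side of a host's circRNAs (y axis, nt, median over its circRNAs) against the median of the other introns of the same isoform (x axis, nt), both on log scales, for the 27 hosts with exonic circRNAs. All but Tgfbr3 and Skil lie above the dashed line of equal length.

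Circles of coding sequence kept the reading frame more often than in the catalogue, mainly through the LTBP genes. Where the exonic length is a multiple of 3, the host's frame runs on through the junction. This held for 69 of 125 coding circles (55.2%), against 39.5% of 21549 over the catalogue. In the LTBP genes it held for 34 of 43 (79.1%), including 27 of 35 for Ltbp1, all 4 exonic circles of Ltbp4 and all 3 of Ltbp3, though not the marked Ltbp2 circle of 941 nt. In the other hosts it held for 35 of 82 (42.7%). Over the receptor and co-receptor genes it held for 16 of 28 coding circles (57.1%). All 4 Acvr1b circles, 5 of 6 Bmpr2, 4 of 5 Tgfbr2 and 3 of 4 Tgfbr1 circles were multiples of 3, and none was among the coding circles of Acvr2a, Bmpr1a, Eng and Tgfbr3. There was none among the coding circles of Smad1, Smad2, Tgfb1 and Bmp6 either. Circles of a host share exons, so these shares are descriptions. They assume that every annotated exon between the ends of a circle is kept, and whether any circle is translated was not measured.

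**Figure D5:**
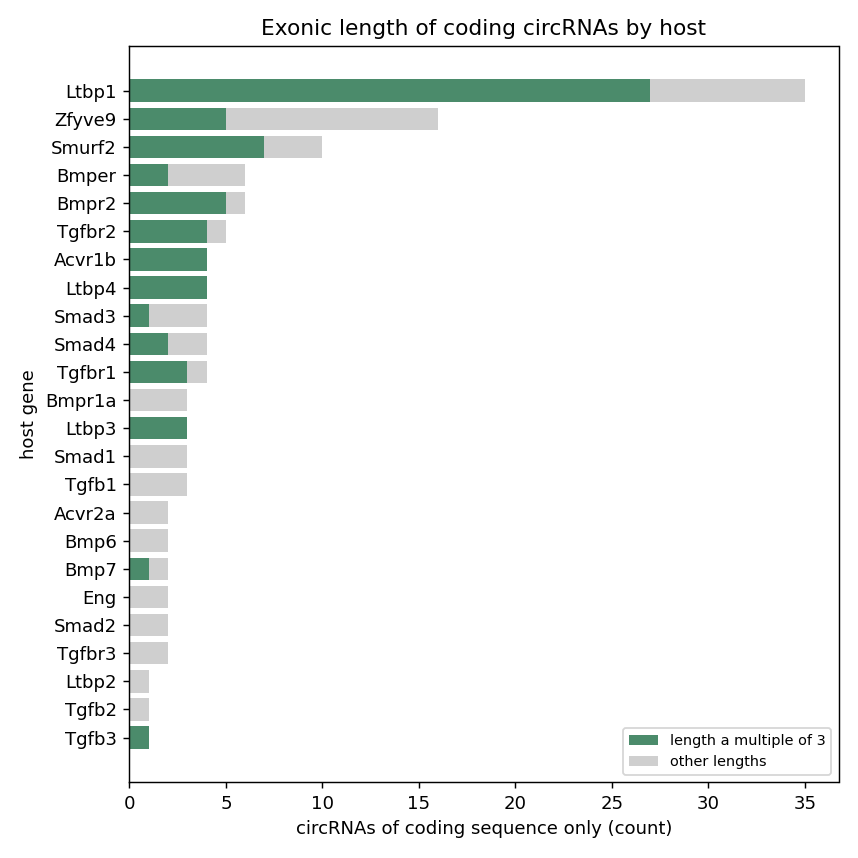
Number of circRNAs made of coding sequence only for each host (x axis, count), with those whose exonic length is a multiple of 3 in green and other lengths in grey. Ltbp1 has 27 of 35 in green and Zfyve9 5 of 16.

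Other genes of the pathway held 11 marked circles, 9 of them from Pcsk5 and Crim1. A further list held 89 genes, such as those for inhibin, follistatin, activin and anti-Müllerian hormone, BMP-binding proteins, proteases that mature the ligands, and SMAD coactivators. Of these, 47 were hosts of 246 circles, and the authors' deposited table marked 2 circles higher in A (Fbn2 and Pcsk6) and 9 higher in B (4 of Pcsk5, a proprotein convertase gene, and 5 of Crim1, which encodes a BMP-binding membrane protein). Marked circRNAs were 1.23% of the catalogue toward A and 0.521% toward B. The list was chosen with earlier results of the whole series known, so its count of marked circles is no test of the pathway. Where 2 or more libraries held a value, A was the higher group for 67 of 97 circles of that list (69.1%, catalogue 70.1%). Genes without a listed circle included the oocyte ligand genes Gdf9 and Bmp15, the activin subunit genes Inhba and Inhbb, and Fst, which encodes follistatin.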

How the data were processed

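Total RNA of 3 adult and 3 neonatal ovary libraries was sequenced after RNase R digestion. Each of the 2 deposited tables lists 27999 circRNAs, apart from 1 emptied line that was not analysed here. The submitters' processing notes name Bowtie 0.12.2 and the GRCm38 build. The sources used here do not give the circRNA caller, its filters or the test. Per the file headers, the authors deposited a log2 fold change (group A over group B, from mean FPKM, infinite where a mean is 0), a p-value and an adjusted p-value per circRNA. Recomputing a Benjamini-Hochberg adjustment gave values within 1.52e-05. The 26 columns of values per library or group mean carry names that match no sample, and were not used, so the planned test on counts, the replicate block and leaving out replicates were not run. Depth is unknown.

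Circles were matched to hosts by symbol and placed by exon ends on the named isoforms in GENCODE M21 (153 of 153 exonic circles of these hosts, 25828 of 26144 in all), with Python 3.11.15, pandas 2.3.3, NumPy 2.4.6 and SciPy 1.17.1. Placement was tested on simulated isoforms. A deposited p of 0.423 (tolerance 1e-09), the value an unequal-variance test gives for that pattern, was read as detection in a single library. Every one of the 40 genes is named. Described singly are circles with p under 0.05, the smallest-p circle and the circle with most exons of a host, and all circles of hosts with 3 or fewer, with others added after their values were seen. Genes and lists were chosen with earlier results of these data known. Searches of introns for repeats, and of protein sequence, were not made here.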

Additional observations from a re-analysis of the deposited data

How the results depend on the processing

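Of 23 alternatives computed for 9 results, 18 kept counts within 1.5 times the reported one and other values within its 95% interval. With an adjusted p under 0.05 in place of the unadjusted one, 0 circles of these hosts were called, against 1 by the authors' unadjusted p under 0.05, and the call was also lost (0 circles) when only circRNAs with values in both groups were kept, since the Ltbp2 circle had values in A only. The share of circles higher in A was 70.4% with each host counted once, against 52.9%. It was 57.6% over all 158 circles, 46.2% with values in both groups, 44.1% with fold changes centred on the catalogue's median, and 64.2% without Ltbp1, a setting chosen after seeing the data. The median log2 fold change was -0.17 over circles, and changed sign to 0.24 as the median over hosts, to 0.19 for circles with p under 0.5 and to 0.24 without Ltbp1. With values in 2 or more libraries, 68 of the 158 circles and 24 of 29 hosts were left, and flanking introns were longer in 100% of hosts. The share of coding circles whose length is a multiple of 3 was 50.9% in that subset and 46.7% without Ltbp1.

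No paired analysis was possible because the columns carry no sample names that tie them to replicate numbers. Leaving out each replicate was not run for the same reason, nor were the searches of flanking introns at other lengths, which need a genome sequence. As depth is unknown, a circle listed in a single library was not read as absent from the others.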
